A study of Mus musculus with 12 samples.

Results

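The lysosome and autophagy genes described here are 44 named mouse genes, chosen by symbol, and 41 of them were among the 8101 genes tested on these arrays. They comprise 21 acid hydrolases and soluble cofactors, 6 proteins of the lysosomal membrane, 6 proton pump subunits, 9 autophagy genes and 2 transcription factors. A gene was tested when a probe carrying its symbol had a detection p-value under 0.05 on at least 3 of 12 Illumina bead arrays, and the brightest such probe stood for it. Of the 41 tested genes, 38 were detected on all 12 arrays. The other tested genes were Ulk1 on 11 arrays, Gla on 9 and Wipi1 on 6. Tfeb and Gabarapl2, with 2 probes each, were detected on 0 arrays and have no level here, and Npc1 was not analysed here.

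The arrays measured messenger RNA in RAW264.7, a mouse macrophage cell line in wide use, in 4 groups of 3 biological replicates, per the labels. Cells were given CpG with gefitinib, CpG alone, gefitinib alone, or neither. CpG oligonucleotides stand in for bacterial DNA, which the receptor TLR9 detects in endosomes. Gefitinib is a small-molecule inhibitor of the EGF receptor's kinase. Gefitinib (10 µM) was added 1 h ahead of CpG, which was present at 10 µg/ml during 6 h. How long cells without CpG were kept before RNA extraction is not given in the sources used here. All arrays come from a single cell line, so the spread between replicates is that between cultures. The stated comparison of the study was CpG with gefitinib against CpG.

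Lysosomes are acidic compartments in which hydrolases break down protein, lipid and glycan cargo, kept acid by the vacuolar proton pump. Autophagy wraps cytoplasmic cargo in a membrane that fuses with the lysosome, and in macrophages the same compartment digests engulfed material and holds the receptors for nucleic acids. The related transcription factors TFEB, TFE3 and MITF are known to bind E-box letters in the promoters of many lysosomal genes, and mTORC1 on the lysosome surface restrains them.

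Between 10705 and 11181 probes were detected per array. Of the 9 macrophage markers listed, 7 had a probe, and Adgre1, Lyz2, Fcgr1, Cd14 and Spi1 were detected on all 12 arrays, whereas Itgam was detected on the 3 CpG arrays alone and Mertk on none. The summed log2 level of the macrophage list lay between 14.4 and 14.6 with CpG and gefitinib, 15.2 and 15.3 with CpG, 14.5 and 14.7 with gefitinib, and 14.7 and 14.8 in untreated cells. In the fibroblast and epithelial list 5 of 6 genes with a probe were detected on 0 arrays, and Cdh1 on 11. In the lymphocyte and granulocyte list 5 of 7 were at 0 and Elane was detected on 2 arrays. S100a8, a neutrophil and myeloid calcium-binding protein, carried that list's summed level of 6.81 to 7.09 with CpG and gefitinib, 10.2 to 10.9 with CpG, 6.65 to 7.13 with gefitinib and 7.44 to 7.90 in untreated cells. The part of these markers in the results below was not tested, and in bulk RNA fewer cells of a type and less RNA per cell cannot be told apart. The response to CpG itself was visible in Tnf, whose mean log2 level was 8.43 with CpG and gefitinib, 12.79 with CpG, 8.0 with gefitinib and 8.62 in untreated cells.

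In cells given CpG with gefitinib against CpG alone, most of the changed lysosome and autophagy genes rose. Of the 41 genes, 19 rose and 4 fell, and 18 did not pass the test (limma, Benjamini-Hochberg adjusted p under 0.05 over all 8101 genes). Among all genes tested, 37.3% were called, 22.0% higher and 15.2% lower. The median log2 difference was 0.34 over the 41 genes and 0.06 over all genes. Positive differences numbered 34 of the 41, and made up 56.2% over all genes. The median over the 41 genes was 0.20 with the authors' value table and 0.18 without normexp background correction, and that over all genes 0.03 with either. Hydrolases and their cofactors made up 13 of the 19 genes that rose and 2 of the 4 that fell, with 71.4% of them called. Gpnmb, Psap and Lipa were the 3 genes with the greatest rise, each by over 1 log2 unit.

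**Figure D1:**
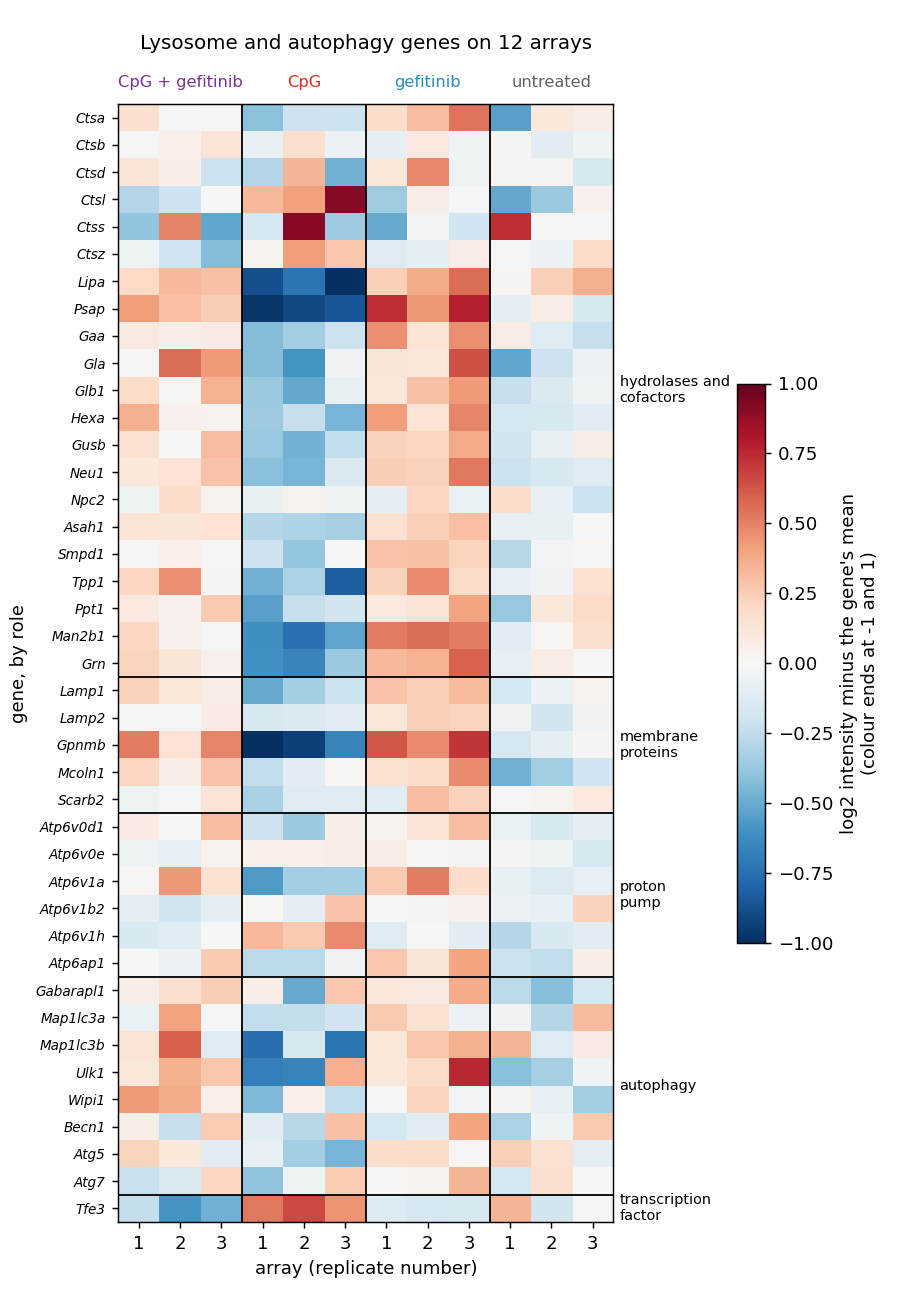
Normalised log2 intensity of the 41 tested genes (rows, grouped by role) on the 12 arrays (columns, 3 per group), each minus the gene's mean over the arrays. Most rows of the hydrolases are lower on the 3 CpG arrays, while the rows of Ctsl, Atp6v1h and Tfe3 are higher there.

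Psap encodes prosaposin, the precursor of the saposins that help hydrolases reach sphingolipids. On the log2 intensity scale it read 12.38, 12.27 and 12.21 on the arrays of CpG with gefitinib, 10.99, 11.06 and 11.11 with CpG, 12.70, 12.40 and 12.74 with gefitinib and 11.87, 12.04 and 11.81 in untreated cells. The CpG arrays were the lowest and did not overlap any other group. The difference between CpG with gefitinib and CpG was 1.23 ± 0.11 (SE, adjusted p = 2.51e-06), a 2.35-fold rise.

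Lipa, the acid lipase that hydrolyses cholesteryl esters and triglycerides, read 9.77, 9.90 and 9.87 with CpG and gefitinib, 8.70, 8.84 and 8.58 with CpG, 9.81, 9.94 and 10.14 with gefitinib and 9.60, 9.81 and 9.93 in untreated cells. Only the CpG arrays were low, and the other 3 groups overlapped one another. Lipa differed by 1.14 ± 0.12 (adjusted p = 8.40e-06), a 2.20-fold rise.

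Tpp1, which removes tripeptides from the ends of proteins, read 8.26, 8.51 and 8.08 with CpG and gefitinib, 7.57, 7.73 and 7.23 with CpG, 8.28, 8.52 and 8.24 with gefitinib and 7.97, 8.01 and 8.20 in untreated cells. The 3 CpG arrays again lay below all others. Its difference was 0.77 ± 0.15 (adjusted p = 0.00126).

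Man2b1, the lysosomal alpha-mannosidase, read 10.94, 10.77 and 10.72 with CpG and gefitinib, 10.12, 9.98 and 10.21 with CpG, 11.25, 11.29 and 11.25 with gefitinib and 10.62, 10.74 and 10.89 in untreated cells. The gefitinib arrays were the highest and the CpG arrays the lowest, with no overlap of either with another group. Man2b1 differed by 0.71 ± 0.11 between CpG with gefitinib and CpG (adjusted p = 0.000178).

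Among the glycosidases, Gla, alpha-galactosidase A, rose by 0.69 and Gusb, beta-glucuronidase, by 0.52. Neu1, the sialidase, rose by 0.52. Glb1, beta-galactosidase, Hexa, the alpha subunit of beta-hexosaminidase, and Gaa, acid alpha-glucosidase, rose by 0.50, 0.50 and 0.41. All 7 glycosidases of the set, Man2b1 among them, passed the test upwards, a grouping made after their values were seen. Gla was dim, seen above background on 3 of 3 arrays with CpG and gefitinib and 1 of 3 CpG arrays, and its difference was 0.20 with the authors' value table and 0.18 without normexp. For Gusb, 2 further probes differed by 0.18 and 0.22 and were not called, and the mean of its probes gave 0.30. Outside the glycosidases, Grn, encoding progranulin, rose by 0.68. Ppt1, a thioesterase that removes palmitate from proteins, and Asah1, acid ceramidase, rose by 0.45 and 0.44. The second Asah1 probe differed by 0.33 and missed the threshold, and median scaling gave 0.29.

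Of the 6 cathepsins, the main lysosomal proteases, 2 fell and 0 rose. Ctsl, a cysteine endoprotease, read 6.11, 6.20 and 6.40 with CpG and gefitinib, 6.72, 6.81 and 7.32 with CpG, 6.05, 6.46 and 6.38 with gefitinib and 5.89, 6.03 and 6.45 in untreated cells. The CpG arrays were the highest, and the other groups overlapped. Ctsl fell, with a log2 difference of -0.72 ± 0.18 (adjusted p = 0.00760), which was -0.36 with the authors' value table and -0.33 without normexp.

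Ctsz, a cysteine carboxypeptidase, read 10.32, 10.17 and 9.94 with CpG and gefitinib, 10.40, 10.79 and 10.64 with CpG, 10.24, 10.28 and 10.45 with gefitinib and 10.36, 10.31 and 10.56 in untreated cells. CpG with gefitinib lay just under CpG without overlap, while the CpG arrays overlapped the gefitinib and untreated arrays. The log2 difference was -0.47 ± 0.13 (adjusted p = 0.0139), and both Ctsz probes were called lower.

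Ctsd, the main aspartic protease, read 6.63, 6.57 and 6.28 with CpG and gefitinib, 6.21, 6.84 and 6.02 with CpG, 6.62, 6.98 and 6.45 with gefitinib and 6.53, 6.53 and 6.35 in untreated cells. All 4 groups overlapped, and the difference of 0.14 ± 0.19 did not pass the test (adjusted p = 0.632, 95% interval -0.28 to 0.55). The remaining cathepsins did not pass either. Ctsb differed by 0.04, Ctss, which trims the invariant chain in antigen-presenting cells, by -0.26, and Ctsa, a carboxypeptidase that also stabilises neuraminidase and beta-galactosidase, by 0.34. Of the lipid handlers, Smpd1, acid sphingomyelinase, and Npc2, a luminal cholesterol carrier, differed by 0.23 and 0.08 and did not pass the test.

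Of 5 membrane proteins tested, Gpnmb and Lamp1 rose, and the 40% called was close to the 37.3% over all genes. Gpnmb, a transmembrane glycoprotein of endosomes and lysosomes, read 13.65, 13.28 and 13.63 with CpG and gefitinib, 12.02, 12.21 and 12.47 with CpG, 13.76, 13.62 and 13.86 with gefitinib and 12.97, 13.04 and 13.16 in untreated cells. The CpG arrays were the lowest, the untreated arrays came next, and neither overlapped another group. The log2 difference was 1.29 ± 0.14 (adjusted p = 8.85e-06), and all 4 Gpnmb probes were called higher, by 1.29 to 1.85.

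Lamp1, an abundant glycoprotein of the lysosomal membrane, read 11.77, 11.66 and 11.61 with CpG and gefitinib, 11.03, 11.19 and 11.32 with CpG, 11.83, 11.78 and 11.86 with gefitinib and 11.38, 11.48 and 11.57 in untreated cells. No CpG array reached the level of an array from another group. Lamp1 differed by 0.50 ± 0.10 (adjusted p = 0.00219).

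Mcoln1, a cation channel that releases lysosomal calcium, read 6.74, 6.59 and 6.81 with CpG and gefitinib, 6.28, 6.41 and 6.55 with CpG, 6.68, 6.71 and 7.0 with gefitinib and 6.05, 6.18 and 6.33 in untreated cells. The arrays of CpG with gefitinib lay above those of CpG, and the CpG and untreated arrays overlapped. The difference of 0.30 ± 0.12 missed the threshold (adjusted p = 0.0774). Lamp2, a membrane glycoprotein also used in chaperone-mediated autophagy, and Scarb2, the sorting receptor of glucocerebrosidase, differed by 0.17 and 0.21 and did not pass.

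Of 6 proton pump genes 1 rose and 1 fell, or 33.3% called, below the 37.3% over all genes. Atp6v1a, the catalytic A subunit of the cytosolic sector, read 9.76, 10.17 and 9.89 with CpG and gefitinib, 9.17, 9.39 and 9.40 with CpG, 10.0, 10.24 and 9.91 with gefitinib and 9.66, 9.60 and 9.65 in untreated cells. The CpG arrays were the lowest and the untreated arrays lay between them and both gefitinib groups. Atp6v1a rose by 0.62 ± 0.13 (adjusted p = 0.00190).

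Atp6v1h, a regulatory subunit of the same sector, read 11.05, 11.08 and 11.21 with CpG and gefitinib, 11.52, 11.46 and 11.67 with CpG, 11.07, 11.20 and 11.10 with gefitinib and 10.92, 11.05 and 11.09 in untreated cells. Here the CpG arrays stood above all others, and the other 3 groups overlapped. The log2 difference was -0.44 ± 0.10 (adjusted p = 0.00379). The membrane-sector subunits Atp6v0d1 and Atp6v0e differed by 0.30 and -0.09, the B subunit Atp6v1b2 by -0.20 and the accessory protein Atp6ap1 by 0.25, and none of these 4 passed the test.

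Of 8 autophagy genes, 3 rose and 0 fell, and the 37.5% called was close to the 37.3% over all genes. Map1lc3b, which encodes the LC3B protein attached to autophagosome membranes, read 7.47, 7.93 and 7.20 with CpG and gefitinib, 6.58, 7.18 and 6.60 with CpG, 7.45, 7.61 and 7.69 with gefitinib and 7.68, 7.21 and 7.41 in untreated cells. CpG with gefitinib lay above CpG, with the lowest array of one and the highest of the other nearly touching. Map1lc3b differed by 0.75 ± 0.20 (adjusted p = 0.00964), and by 0.45 with the authors' value table and 0.42 without normexp.

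Wipi1, which binds phosphatidylinositol 3-phosphate on the growing membrane, rose by 0.50, although it was seen above background on 3 of 3 arrays with CpG and gefitinib and 1 of 3 CpG arrays. The Wipi1 difference was 0.15 with the authors' value table and 0.13 without normexp, and then missed the threshold. Atg5, part of the conjugation machinery for LC3, rose by 0.37, and both of its probes were called higher. Ulk1, the kinase that starts autophagy, differed by 0.58 with a wide 95% interval of 0.04 to 1.12 and did not pass (adjusted p = 0.0850). The LC3 relatives Map1lc3a and Gabarapl1, the lipid kinase subunit Becn1 and the activating enzyme Atg7 differed by 0.33, 0.21, 0.06 and 0.01, without passing.

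Tfe3, the only transcription factor of the set with a level, fell the most. It read 7.03, 6.68 and 6.79 with CpG and gefitinib, 7.80, 7.93 and 7.72 with CpG, 7.13, 7.10 and 7.12 with gefitinib and 7.61, 7.08 and 7.25 in untreated cells. The 3 CpG arrays were the highest. The log2 difference was -0.98 ± 0.14 (adjusted p = 9.33e-05). It was -0.61 with the authors' value table and -0.57 without normexp. Arrays measure its RNA and not the protein or its place in the cell.

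**Figure D2:**
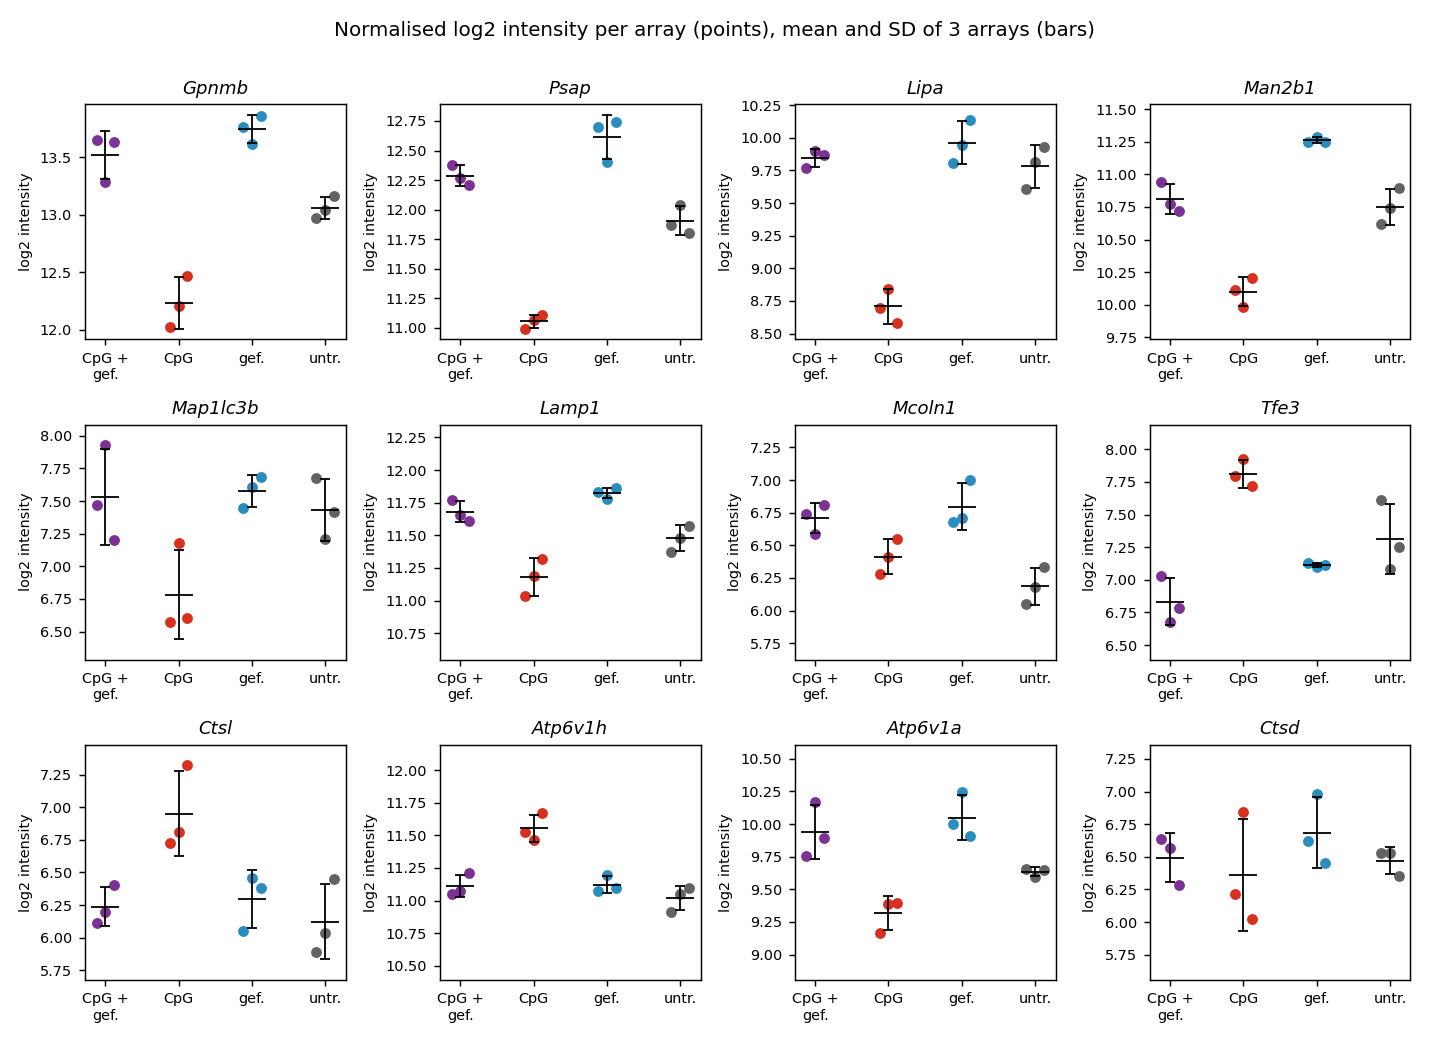
Normalised log2 intensity (vertical axes, each with its own range) of 12 genes in the 4 groups, as points per array with the mean and SD of 3 arrays. Gpnmb, Psap, Lipa and Man2b1 are lowest with CpG, Tfe3, Ctsl and Atp6v1h are highest with CpG, and the groups of Ctsd overlap.

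The replicate numbers paired CpG with gefitinib and CpG by the correlation of their deviations, and with that block 27 genes were called. Over all genes, 40.8% were called with it. The 4 calls added among the 41 genes were Mcoln1 (adjusted p = 0.0241), Ulk1 (0.0205), Atp6ap1 (0.0305) and Atp6v0d1 (0.0338), all higher. The other Atp6v0d1 probes differed by 0.06, 0.11 and 0.07 and were not called in the fit without the block. Median scaling in place of quantile normalization ended the calls of Asah1, Gaa, Gusb, Hexa, Lamp1 and Atg5 (adjusted p = 0.127 for Lamp1), and averaging a gene's probes ended that of Gusb. Leaving out single arrays ended 6 calls, namely Atg5 under 7 of 12 omissions (adjusted p up to 0.157), Ppt1 without any array of CpG with gefitinib or without CpG 1 (up to 0.145), Wipi1 without CpG with gefitinib 1 or 2 or CpG 1 (up to 0.0924), Gla without CpG with gefitinib 2 or 3 or CpG 2 (up to 0.0632), Ctsz without CpG with gefitinib 3 or CpG 2 (up to 0.0663) and Gaa without CpG 1 (0.0668).

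Of 146 other lysosome and autophagy genes listed for the same roles and their regulators, 105 were tested. Of these, 40 rose and 8 fell (45.7% called, against 37.3% of all genes), with a median log2 difference of 0.20. Among 23 further hydrolases and cofactors 14 rose, led by Hyal1, a hyaluronidase, and Sgsh, the heparan sulfate sulfamidase. Neither was detected on a CpG array, so their rises are bounds of at least 1.58-fold and at least 1.82-fold. The 1 hydrolase that fell was Ctsc, a dipeptidyl peptidase, at -1.35. The cathepsin Ctsf read 7.26, 7.19 and 7.13 with CpG and gefitinib and 6.15, 6.37 and 6.31 with CpG, without overlap. Ctsk, which was dim, read 4.96, 5.08 and 4.95 with CpG and gefitinib and 5.33, 5.17 and 5.74 with CpG. Among 28 membrane proteins 10 rose and 4 fell. Ctns, the cystine exporter, and Sort1, the sorting receptor sortilin, rose by 1.60 and 1.52, while Cln3 had a log2 difference of -0.44. The mannose 6-phosphate receptor Igf2r, detected on no array of CpG with gefitinib, was at least 1.20-fold lower there. Of 12 other pump subunits, Atp6v0e2 alone was called, at 0.62.

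Among 30 other autophagy genes 9 rose and 2 fell, or 36.7% called against 37.3% of all genes. The phosphoinositide-binding Wdr45 rose by 1.48, Trp53inp1, detected on no CpG array, rose at least 2.45-fold, and Vmp1, a scramblase of the endoplasmic reticulum, had a log2 difference of -1.09. Sqstm1, the p62 cargo receptor, read 11.77, 12.03 and 12.20 with CpG and gefitinib, 12.57, 12.66 and 12.73 with CpG, 11.49, 11.91 and 12.19 with gefitinib and 10.94, 11.35 and 11.52 in untreated cells. Its CpG arrays were the highest. Sqstm1 differed by -0.66 ± 0.18 between CpG with gefitinib and CpG (adjusted p = 0.0134), and by 1.39 between CpG and untreated cells. Of 12 regulators 6 rose, led by Rragb, a GTPase that recruits mTORC1 to lysosomes, at 0.62 and Tsc2, an mTORC1 inhibitor, at 0.52. Tfec, a relative of Tfe3, was the 1 regulator that fell, at -0.63, and Mitf and the osteoclast pump subunit Atp6v0d2 were detected on 0 arrays.

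**Figure D3:**
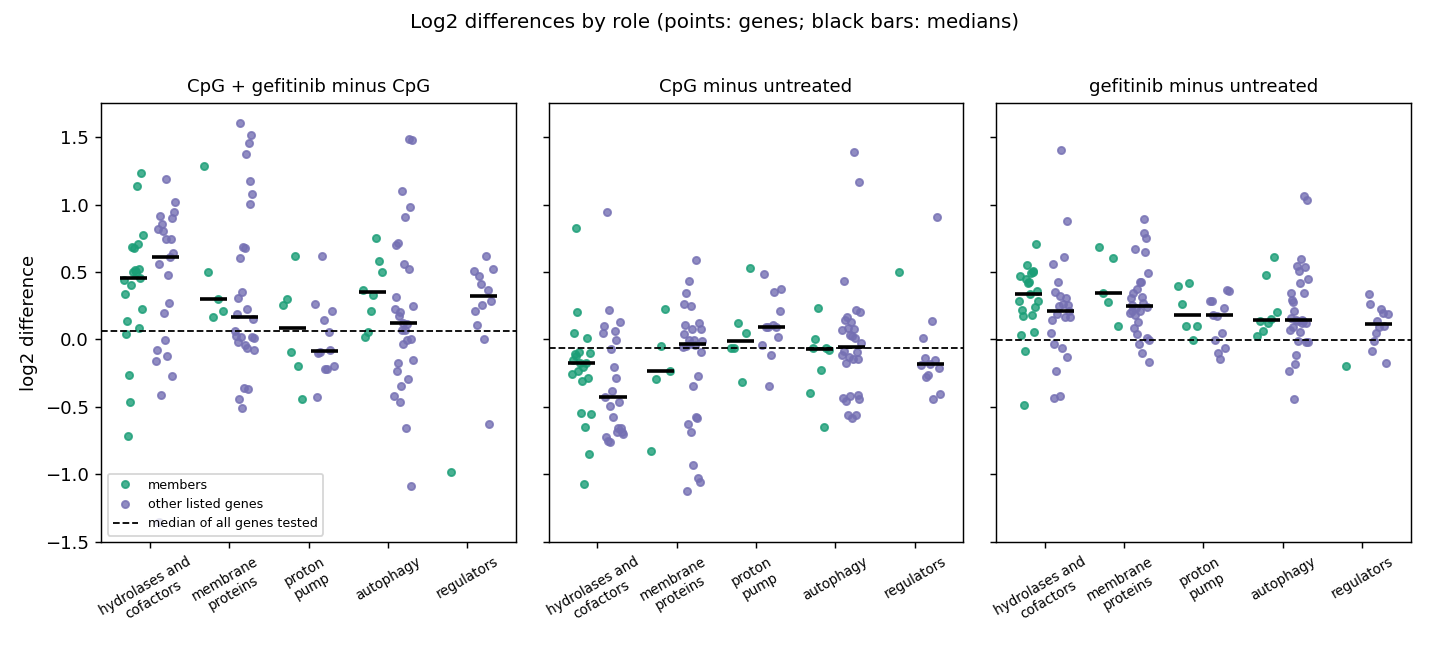
Log2 differences (vertical axis) of the tested genes and of the other listed genes by role, in 3 comparisons, with black bars at the medians and a dashed line at the median of all genes tested. In CpG with gefitinib against CpG the points of the hydrolases lie mostly above the line, and in CpG against untreated cells mostly below it.

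The promoters of these genes were searched for E-box letters, since this is the sequence that the TFE3 family is known to bind. RefSeq windows of 300 bases were used (250 before to 50 after the start, build GRCm38.p6, both strands). CACGTG was present in 13 of the 35 tested genes with a window, or 37.1%, against 8.09% of 27025 genes. Those 27025 are all genes with a window and were not limited to genes detected on these arrays. The letters CACGTG were present in 6 of 18 genes that rose (33.3%), 1 of 3 that fell, and 6 of 14 that were not called (42.9%). The longer TCACGTG, which contains it, was in 31.4% of the 35 against 4.29% of all, and the palindrome TCACGTGA was in 20% against 1.12%. The CLEAR core of 10 letters, which extends that palindrome by a base on both sides, was in 0 of the 35 against 0.37%. A gene with several windows counted once, if any of them held the letters. The windows of Lamp1, Mcoln1, Atp6v1a and Gla, which hold the letters, and of Lipa and Gpnmb, which rose strongly without them in the window, are given here, 5′ to 3′ on the gene's strand and with CACGTG in capitals.
Lamp1, chr8:13158911-13159210, plus strand: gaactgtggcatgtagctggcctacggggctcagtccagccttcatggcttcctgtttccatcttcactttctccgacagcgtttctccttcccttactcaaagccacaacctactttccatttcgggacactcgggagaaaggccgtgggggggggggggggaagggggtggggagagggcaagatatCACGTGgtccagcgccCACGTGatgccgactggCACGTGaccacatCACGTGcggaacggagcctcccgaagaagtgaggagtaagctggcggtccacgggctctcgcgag
Mcoln1, chr8:3500269-3500568, plus strand: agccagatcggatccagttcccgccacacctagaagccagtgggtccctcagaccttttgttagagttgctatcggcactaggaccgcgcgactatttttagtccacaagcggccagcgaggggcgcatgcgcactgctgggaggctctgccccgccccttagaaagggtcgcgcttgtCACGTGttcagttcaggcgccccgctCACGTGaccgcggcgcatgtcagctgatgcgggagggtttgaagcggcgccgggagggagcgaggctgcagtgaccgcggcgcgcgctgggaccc
Atp6v1a, chr16:44139210-44139509, minus strand: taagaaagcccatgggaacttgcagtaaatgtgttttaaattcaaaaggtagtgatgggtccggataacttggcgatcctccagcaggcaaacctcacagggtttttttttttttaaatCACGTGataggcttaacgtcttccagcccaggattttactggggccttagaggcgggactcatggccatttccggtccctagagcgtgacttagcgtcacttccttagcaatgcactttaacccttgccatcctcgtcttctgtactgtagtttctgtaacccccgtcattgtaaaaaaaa
Gla, chrX:134600956-134601255, minus strand: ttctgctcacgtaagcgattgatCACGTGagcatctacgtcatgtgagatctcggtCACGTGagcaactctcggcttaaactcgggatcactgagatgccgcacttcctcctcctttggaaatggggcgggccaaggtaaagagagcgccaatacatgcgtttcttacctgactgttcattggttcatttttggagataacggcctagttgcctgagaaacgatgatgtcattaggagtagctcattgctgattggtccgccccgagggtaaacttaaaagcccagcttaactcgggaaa
Lipa, chr19:34527425-34527724, minus strand: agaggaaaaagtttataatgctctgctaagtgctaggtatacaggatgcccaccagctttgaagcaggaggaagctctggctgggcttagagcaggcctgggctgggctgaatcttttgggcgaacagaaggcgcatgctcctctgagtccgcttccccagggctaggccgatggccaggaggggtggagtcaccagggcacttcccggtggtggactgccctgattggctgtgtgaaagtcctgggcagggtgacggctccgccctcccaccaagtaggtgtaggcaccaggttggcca
Gpnmb, chr6:49036268-49036567, plus strand: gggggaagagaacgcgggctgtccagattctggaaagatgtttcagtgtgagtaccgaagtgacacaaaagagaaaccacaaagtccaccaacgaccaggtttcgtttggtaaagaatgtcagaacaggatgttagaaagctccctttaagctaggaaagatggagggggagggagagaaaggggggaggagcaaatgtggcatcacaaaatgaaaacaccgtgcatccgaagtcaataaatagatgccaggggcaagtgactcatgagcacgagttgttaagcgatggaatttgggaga
Lamp1 had 4 copies of CACGTG, Gla and Mcoln1 2 each, and Atp6v1a 1. These matches describe letters in a window, and binding was not measured.

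CpG alone against untreated cells changed 12 of the 41 genes, 9 lower and 3 higher. Of all genes tested 25.4% were called, 15.3% lower and 10.0% higher. The median log2 difference was -0.12 over the 41 genes and -0.06 over all genes. The median over the 41 genes was -0.07 with cyclic loess, -0.22 with median scaling, -0.08 with the authors' value table and -0.07 without normexp, and -0.19, -0.22 and -0.19 without CpG 2, CpG 3 and untreated 1. The median over all genes was -0.02, -0.12, -0.03 and -0.03 in those settings, and -0.06, -0.07 and -0.06 without those arrays. This comparison and that of CpG with gefitinib against CpG share the CpG arrays, so their values are given side by side and not correlated.

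Lipa, at -1.07 ± 0.12 (adjusted p = 2.00e-05), fell the most, and Psap (-0.85), Man2b1 (-0.65), Tpp1 (-0.55), Grn (-0.54) and Asah1 (-0.26) were the other hydrolases or cofactors called lower. Gpnmb had a log2 difference of -0.83 ± 0.14 (adjusted p = 0.000599), and the autophagy genes Map1lc3b and Atg5 had -0.65 and -0.40. The 3 genes that rose were Ctsl at 0.83 ± 0.18 (adjusted p = 0.00451), Atp6v1h at 0.53 ± 0.10 (adjusted p = 0.00160) and Tfe3 at 0.50 ± 0.14 (adjusted p = 0.0167). Of the glycosidases, Man2b1 was called, while Gaa, Gla, Glb1, Hexa, Gusb and Neu1 had differences between -0.31 and -0.09 that did not pass. Lamp1 (-0.30) and Atp6v1a (-0.32) also missed the threshold, though the CpG arrays lay below the untreated arrays in both. Without normexp the differences of Ctsl, Map1lc3b, Tfe3 and Tpp1 were 0.38, -0.35, 0.31 and -0.36, and with the authors' value table those of Ctsl, Map1lc3b and Tfe3 were 0.41, -0.38 and 0.33.

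Among the other listed genes CpG lowered 28 of 105 (26.7%, against 15.3% of all genes) and raised 8 (7.62%, against 10.0%). Of the 23 further hydrolases and cofactors tested, 11 were lowered and 1 was raised. Median scaling ended the calls of Asah1, Atg5 and Tfe3, and single arrays decided 5 of the 12 calls. Asah1 was lost without any 1 of the 12 arrays (adjusted p up to 0.130), Atg5 under 7 omissions (up to 0.140), Map1lc3b without CpG 1 or 3 or untreated 1 or 3 (up to 0.113), Tfe3 without CpG 2 or untreated 2 or 3 (up to 0.0793) and Tpp1 without CpG 3 or untreated 3 (up to 0.0629).

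Gefitinib alone against untreated cells raised 8 genes and lowered 0, where 7.80% of all genes were called, 4.96% higher and 2.84% lower. An unadjusted p under 0.05 was reached by 20 of the 41, and by 1981 of all 8101 genes (24.5%). The differences were positive for 37 of the 41 genes, with a median of 0.28 against -0.00 over all genes, of which 49.5% were positive. Psap was the highest at 0.71 ± 0.11 (adjusted p = 0.00370), followed by Gpnmb at 0.69 ± 0.14 (adjusted p = 0.0108) and Mcoln1 at 0.61 ± 0.12 (adjusted p = 0.0119). Man2b1, Neu1, Hexa, Gaa and Grn rose by 0.51, 0.50, 0.50, 0.45 and 0.42. Lipa, by contrast with its rise over CpG, differed by 0.18 (adjusted p = 0.393), and Tfe3 by -0.20 (adjusted p = 0.407). Of 105 other listed genes 16 rose and 0 fell, 8 of them membrane proteins. Median scaling left 0 of the 8 calls and a median of 0.15, where 1.69% of all genes were called and their median was -0.08. The differences were then 0.19 for Grn, 0.31 for Hexa, 0.26 for Man2b1 and 0.28 for Neu1. The Mcoln1 difference was 0.29 with the authors' value table and 0.27 without normexp. For the calls, single arrays moved the count to between 1 without gefitinib 3 and 11 without CpG 3. Over all genes, 2.54% and 8.81% were called there. The count among the 41 genes was 5 without gefitinib 1 and 4 without any one untreated array (3.96% to 4.62% of all genes). Psap alone was called in every single-array omission.

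**Figure D4:**
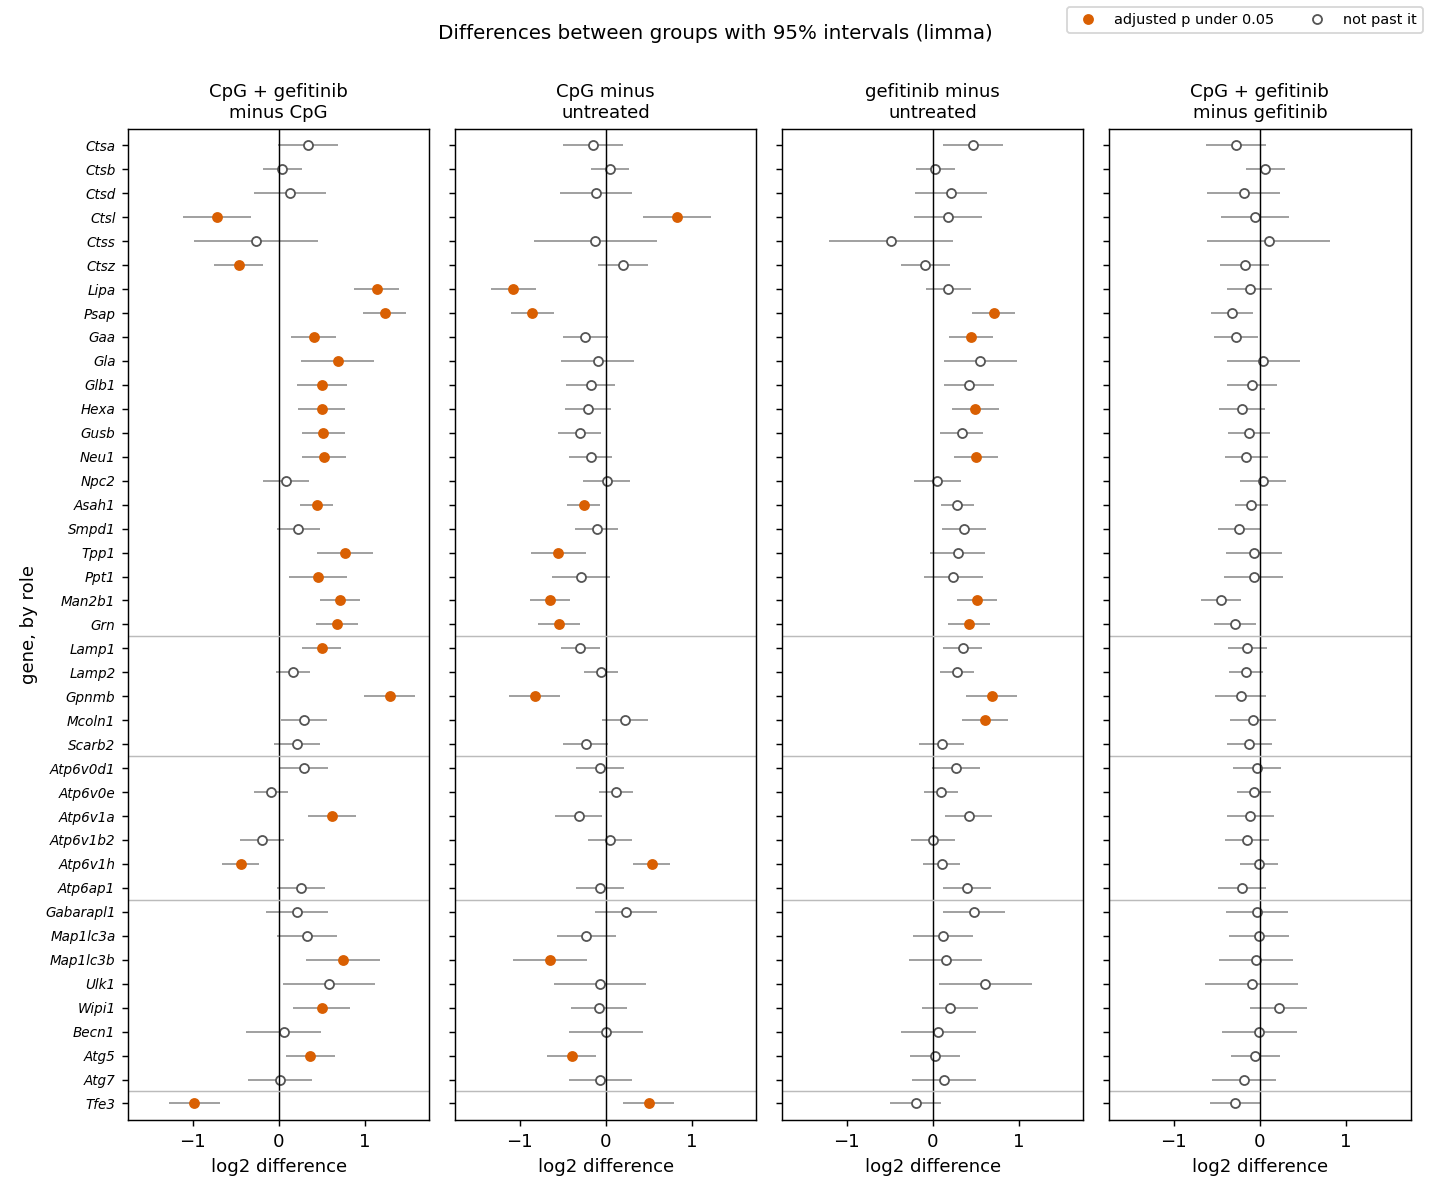
Log2 differences with 95% intervals (horizontal axes) for the 41 genes by role (rows) in 4 comparisons, filled where the adjusted p was under 0.05. Filled points number 23 in CpG with gefitinib against CpG, 12 in CpG against untreated cells, 8 in gefitinib against untreated cells and 0 in CpG with gefitinib against gefitinib.

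In the presence of gefitinib, CpG changed no gene of the set past the threshold. CpG with gefitinib against gefitinib called 0 of the 41 genes by limma, and 0 of 8101 (0%) over all genes. At an unadjusted p under 0.05 there were 4 of the 41 and 252 of all genes, or 3.11%. The differences were negative for 36 of the 41, with a median of -0.11 (-0.07 with median scaling). Over all genes 49.5% were positive, with a median of -0.0015 (0.02 with median scaling). The largest of the 41 was Man2b1 at -0.45 (95% interval -0.68 to -0.22, unadjusted p = 0.00106). The interval of Lipa was -0.38 to 0.14, that of Tfe3 -0.58 to 0.01 and that of Ctsl -0.45 to 0.33. The replicate numbers paired these groups too, and with that block the count was still 0.

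CpG with gefitinib against untreated cells called 1 gene, Mcoln1, at 0.52 ± 0.12 (adjusted p = 0.0361; 0.25 with the authors' value table and 0.23 without normexp), where 3.88% of all genes were called, 2.54% higher and 1.33% lower. The genes called higher were 206 of 314 over all genes, and 56 of 72 with median scaling. At an unadjusted p under 0.05 there were 11 of the 41 genes, and 1546 of all 8101 (19.1%). Gla at 0.59, Ulk1 at 0.51 and Gpnmb at 0.46 did not pass. The other Gpnmb probes differed by 0.83, 0.72 and 0.46. In the same fit over all kept probes the first and second of these were called (limma, adjusted p = 0.00689 and 0.0409). Wipi1 was detected on 0 untreated arrays, and its level with CpG and gefitinib was at least 1.18-fold higher than the detection floor there, without passing the test. Sqstm1, outside the 41 genes, rose by 0.73 and was 1 of 10 other listed genes that did so, with 0 lower. The Mcoln1 call was lost without any array of CpG with gefitinib, without gefitinib 2 or without any untreated array (adjusted p up to 0.133), and the count ranged between 0 and 2, the highest without CpG 2. Over all genes the count ranged between 123 and 454.

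The effect of gefitinib differed between cells with and without CpG for 4 of the 41 genes (9.76%), by the interaction term of the same fit. Over all genes a higher share, 12.3%, was called, 6.34% positive and 6.00% negative. Of the 4 genes called, Lipa alone had a positive term, at 0.96 ± 0.17 (adjusted p = 0.00209). Gefitinib differed from untreated by 0.18 and CpG with gefitinib from CpG by 1.14. The terms of Tfe3, Ctsl and Atp6v1h were -0.78 ± 0.19, -0.89 ± 0.26 and -0.54 ± 0.14 (adjusted p = 0.0179, 0.0389 and 0.0242). For Psap and Gpnmb, which rose with gefitinib in both settings, the terms of 0.53 and 0.60 missed the threshold (adjusted p = 0.0509 and 0.0628). The other Gpnmb probes had terms of 1.18, 0.72 and 0.57, and the first passed in the fit of all kept probes (adjusted p = 0.00642). The second Atg5 probe passed there too, at 0.64 (adjusted p = 0.0205), while the brightest Atg5 probe, at 0.34, did not. Under median scaling Lipa was the 1 call that remained, and with the replicate block 5 genes were called, 2 of them positive. Over all genes, 6.59% and 14.6% were called in these settings. Without normexp the terms of Tfe3 and Ctsl were -0.46 and -0.40, and with the authors' value table -0.48 and -0.43. Without single arrays the calls of Ctsl and Atp6v1h were lost under 7 and 5 of 12 omissions (adjusted p up to 0.0931 and 0.0626), in both cases without CpG with gefitinib 1 or 2, CpG 3, gefitinib 2 or untreated 1, and for Ctsl also without gefitinib 3 or untreated 2.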

How the data were processed

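Total RNA of 12 cultures was measured on 1-colour Illumina bead arrays, with GenomeStudio 2010.2 named in the submitters' processing notes. The deposited file gives linear, non-normalized intensity per the file headers for 25697 probes, and a detection p-value beside every signal, also per the file headers. The authors' value table holds these intensities quantile normalized and not centred, with array medians of 120.007 to 120.064. The platform annotation gave 1 symbol for 23978 probes, several for 0 and none for 1719, and symbols matched RefSeq by gene identifier for 23962 probes with 0 changed.

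With limma 3.58.1 in R 4.3.3, signals were background corrected (normexp from detection p-values, offset 16), quantile normalized and taken to log2. Probes detected at p under 0.05 on at least 3 of 12 arrays were kept (11977), and the probe with the highest mean stood for its gene (8101 genes). All arrays entered 1 linear model with 4 group means (lmFit and eBayes, with 8 residual plus 5.07 prior degrees of freedom), and p-values were adjusted over all genes by Benjamini-Hochberg at 0.05. With 3 arrays per group, differences had a median standard error of 0.14. For a probe detected on no array of a group, a fold is a bound: the brighter group's mean against a floor in the other group (on each array, the dimmest detected probe or the probe itself where brighter, averaged).

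The genes and lists were chosen with earlier results of these data known. Named in full, with every array, are the 6 highest and 4 lowest called genes of CpG with gefitinib against CpG, the 3 largest called in every other comparison, and Lamp1, Ctsd, Map1lc3b and Atp6v1a. Tfeb was to be named too and had no level. From the list of other genes, the 2 highest and 2 lowest called per role are named, with Sqstm1, Mitf and Atp6v0d2. The cathepsins Ctsf and Ctsk were added after the values were seen. Same-numbered replicates were taken as pairs where every correlation of their deviations from the group means was over 0.1, which held for CpG with gefitinib against CpG (0.11 to 0.35) and against gefitinib (0.24 to 0.28). Alternatives were other normalizations, background settings, filters, probe rules, fits and the omission of each array. Promoter windows are from RefSeq.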

Additional observations from a re-analysis of the deposited data

Results flagged for a closer look

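The gefitinib effect with CpG minus the gefitinib effect without it was tested by the interaction term of the limma fit, and 4 lysosome and autophagy genes passed at an adjusted p under 0.05. That is 9.76% of the 41 genes, below the 12.3% of all genes that passed, and with median scaling Lipa alone passed. Lipa, the acid lipase, had a term of 0.96 ± 0.17 on the log2 scale (adjusted p = 0.00209). CpG with gefitinib differed from CpG by 1.14 and gefitinib from untreated by 0.18. Tfe3, the transcription factor, had -0.78 ± 0.19 (adjusted p = 0.0179), from differences of -0.98 with CpG and -0.20 without. Ctsl, the cysteine protease, had -0.89 ± 0.26 (adjusted p = 0.0389), from -0.72 with CpG and 0.17 without. Atp6v1h, the pump subunit, had -0.54 ± 0.14 (adjusted p = 0.0242), from -0.44 with CpG and 0.10 without. All 3 arrays of CpG alone stood apart from the other 9 in each of these genes.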

How the results depend on the processing

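Of all values of the 41 genes under the alternatives, 4895 kept their side of the threshold, 137 no longer passed, 87 newly passed and 0 reversed. A reversal was a change of sign in a value called in the main run or in the alternative. Changes of sign in values called in neither were not counted. Calls that held under every alternative numbered 13 of 23 in CpG with gefitinib against CpG, 7 of 12 in CpG against untreated, 0 of 8 in gefitinib against untreated, 0 of 1 in CpG with gefitinib against untreated and 1 of 4 in the interaction. The number of genes called in gefitinib against untreated (8) was 0 with median scaling, 17 with the authors' value table and 17 without normexp. In CpG with gefitinib against untreated (1) the number was 0 with median scaling, 4 with the authors' table and 4 without normexp. It was 2 with the mean of a gene's probes and 0 with only the groups compared. The shares of all genes called in these settings were, in the same order, 0.889%, 6.33%, 6.23%, 4.6% and 3.09%, against 3.88% in the main run. Over all genes that comparison called 314, 206 of them higher, and 72 with median scaling, 56 of them higher. The interaction (4, with 1 positive) gave 1 with median scaling and 6 with the authors' table, 3 of them positive. Over all genes the interaction called 12.3% in the main run, 6.59% with median scaling and 14.1% with the authors' table. Without single arrays the counts ranged from 19 to 25 in CpG with gefitinib against CpG, 8 to 11 in CpG against untreated, 1 to 11 in gefitinib against untreated, 0 to 0 in CpG with gefitinib against gefitinib, 0 to 2 in CpG with gefitinib against untreated and 2 to 4 in the interaction. Over all genes the counts ranged, in the same order, from 2450 to 3064, 1642 to 1991, 206 to 856, 0 to 0, 123 to 454 and 770 to 1017. The cause of these changes was not tested, beyond the fewer arrays of each omission. With the replicate block the count was 27 in CpG with gefitinib against CpG and 0 in CpG with gefitinib against gefitinib, and 5 in the interaction, 2 of them positive. Over all genes the block called 40.8%, 0% and 14.6% in these. In the comparisons with untreated cells, the replicate numbers did not pair the samples (correlations of -0.15 to 0.19). The block there gave 14 genes in CpG against untreated, 16 in gefitinib against untreated and 5 in CpG with gefitinib against untreated. Over all genes it called 2314, 942 and 496 in these, against 2054, 632 and 314 in the main run. The array slide as a block was not run, since the file headers give none. Gla, Ulk1 and Wipi1 were not above background on all arrays, which limits what their sizes show.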
